A study of Mus musculus with 246 samples.

Results

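The 5 dopamine receptor genes Drd1, Drd2, Drd3, Drd4 and Drd5 were examined together with 4 genes of striatal signalling, Adora2a, Ppp1r1b, Rgs9 and Pde10a. The 9 genes were taken by symbol from a table of 56691 genes, and all 9 were found in it. Their levels were compared across 6 brain regions, 3 conditions and mice with and without a preceding social interaction.

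The libraries came from outbred CD1 male mice that were adult when their brains were taken. Each of 41 mice gave tissue punches of the medial prefrontal cortex (mPFC), the anterior cingulate cortex (ACC), the nucleus accumbens shell (Nacc), the basolateral amygdala (BLA), the dorsomedial thalamus (DMT) and the ventral hippocampus (vHipp), 1 library for each region. Ctrl_Veh mice grew up in standard bedding with a dam that had received an empty slow-release gel. ELA_Veh mice had the same gel but were raised by a dam with limited bedding and nesting material in early postnatal life, a model of early life adversity (ELA). ELA_SAFit2 mice had the same adversity, and their dam's gel held SAFit2, an inhibitor of the stress co-chaperone FKBP51 that reached the pups through the milk. No group combined control rearing with SAFit2. In each condition 7 mice belonged to the set NoInteraction, and 6 (Ctrl_Veh) or 7 (ELA_Veh and ELA_SAFit2) to the set SocialInteraction, whose brains were taken after 10 minutes with another mouse. The treatment was given to dams and the labels name no litters, so p-values describe the spread between mice, some of which may be littermates.

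Dopamine reaches the striatum from the midbrain and acts on the spiny projection neurons that make up most striatal cells. Direct pathway neurons carry the D1 receptor (Drd1), which raises cyclic AMP, and indirect pathway neurons carry the D2 receptor (Drd2), which lowers it, together with an adenosine receptor (Adora2a) that opposes D2. Both kinds of neuron contain DARPP-32 (Ppp1r1b), a phosphatase inhibitor switched on by protein kinase A, the G-protein brake RGS9 (Rgs9) and the cyclic nucleotide phosphodiesterase PDE10A (Pde10a). The D3 receptor (Drd3) is best known from the ventral striatum, the D4 receptor (Drd4) from the cortex and retina, and the D5 receptor (Drd5) from the hippocampus, cortex and thalamus.

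The sequences just upstream of 3 receptor genes are shown because these genes had their highest levels in different regions, Drd1 and Drd2 in the Nacc and Drd5 in the vHipp. They were read from RefSeq promoter windows of GRCm38.p6 and cut to the bases outside GENCODE M21 exons. They cover chr13:54055706-54055908 on the minus strand for Drd1, chr9:49340153-49340402 on the plus strand for Drd2 and chr5:38319259-38319366 on the plus strand for Drd5, each printed 5′ to 3′ along the gene. Capitals mark the GC box letters GGGCGG on either strand.
Drd1: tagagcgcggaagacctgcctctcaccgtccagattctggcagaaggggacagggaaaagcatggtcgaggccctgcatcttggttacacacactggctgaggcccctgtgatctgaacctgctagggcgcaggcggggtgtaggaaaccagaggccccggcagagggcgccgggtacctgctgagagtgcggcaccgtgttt
Drd2: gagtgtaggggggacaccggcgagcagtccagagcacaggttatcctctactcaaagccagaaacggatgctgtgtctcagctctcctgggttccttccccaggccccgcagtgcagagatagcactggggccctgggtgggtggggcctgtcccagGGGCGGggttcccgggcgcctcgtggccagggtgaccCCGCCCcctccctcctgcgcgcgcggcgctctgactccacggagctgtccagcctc
Drd5: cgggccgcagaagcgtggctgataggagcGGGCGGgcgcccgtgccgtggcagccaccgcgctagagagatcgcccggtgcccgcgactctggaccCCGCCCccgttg

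The Drd2 and Drd5 stretches each held 2 matches and the Drd1 stretch held 0. Of the 9 genes, 7 had windows in the table, and Adora2a and Ppp1r1b did not. In the 250 bases before a start, 6 of the 9 windows of these 7 genes held the letters, and 32.7% of the 32851 windows of all genes did. Drd1 and Pde10a had 2 windows each, and the window of Drd1 that is not shown held 1 match. A match describes the letters only.

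Total counts per library lay between 20804247 and 43351424. Marker gene lists were highest in the regions named on the labels. Their summed level in CPM (counts scaled to the size of the library) had a median of 3255 for 7 thalamic genes in the DMT and at most 244.4 elsewhere, and of 5619 for 20 genes of striatal projection neurons in the Nacc. Lists of neighbouring tissue varied between punches. A list of 5 choroid plexus genes ranged from 23.05 to 5703 CPM between BLA libraries, and 6 cortical excitatory genes ranged from 79.49 to 1418 CPM between Nacc libraries. Between mPFC libraries, 6 olfactory bulb genes ranged from 8.909 to 380.4 CPM. From genes that differ between individual mice, 12 Nacc libraries matched another mouse than the one on their label, always of another group, and 0 libraries did in the other regions. These 12 comprised 2 in each of the 6 groups and all came from the 13 mice with the lowest library numbers. They were kept under their labels, and some values without them or without all 13 mice are given. In bulk tissue, fewer cells of a type and less RNA per cell cannot be told apart.

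In the Nacc, Ppp1r1b had the highest level per length of the 9 genes, with a median of 387.6 CPM per kilobase of exon. Pde10a (85.31), Adora2a (82.35), Rgs9 (68.56), Drd1 (59.56) and Drd2 (50.28) followed on this scale. The other 3 dopamine receptors were lower by more than a power of 10, with Drd3 at 4.574, Drd5 at 1.57 and Drd4 at 0.03439 CPM per kilobase. Among the 5 dopamine receptors, Drd1 and Drd2 thus had by far the highest levels per length in this region.

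Drd1 (ENSMUSG00000021478.7, chr13:54051183-54055705 of GRCm38) ranged from 79.34 to 291.9 CPM over the 41 Nacc libraries, with a median of 216.1 CPM. The BLA followed with a median of 58.35 CPM, the ACC with 19.85, the mPFC with 16.35, the vHipp with 5.303 and the DMT with 2.418. All neighbours in this order differed by edgeR's quasi-likelihood test except the ACC and mPFC (log2 difference 0.21 ± 0.12 SE, edgeR adjusted p = 0.181).

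Drd2 (ENSMUSG00000032259.9, chr9:49340627-49408177) ranged from 54.47 to 180 CPM in the Nacc, with a median of 128.1 CPM. Its second highest region was the BLA, with a median of 60.12 CPM, and the third was the DMT, with 20.72 CPM. The DMT libraries were the most even of any region for this gene, from 13.05 to 25.2 CPM, a 1.931-fold range, against 100.1-fold in the mPFC. The DMT median was 16.17% of the Nacc median for Drd2 and 1.119% for Drd1. The vHipp had a higher Drd2 median (4.069 CPM) than the ACC (2.512 CPM) and the mPFC (1.571 CPM). Mean levels put the ACC above the vHipp (log2 difference 0.65 ± 0.25 SE, edgeR adjusted p = 0.01141), and single ACC libraries reached 58.1 CPM. Without the 13 mice the difference was 0.05 (adjusted p = 0.826), and with the mouse as a block it was 0.34 (Drd2, ACC minus vHipp, edgeR adjusted p = 0.1609).

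Adora2a (ENSMUSG00000020178.7, chr10:75316877-75334784) had the steepest gradient among the genes of the striatal pathways. Its median was 252.1 CPM in the Nacc, 136 in the BLA and between 1.366 and 2.865 in the other 4 regions. The Nacc exceeded the vHipp by 7.47 ± 0.29 (SE) and the BLA by 0.76 ± 0.20 on the log2 scale. The vHipp and DMT did not differ by the test, nor did the ACC and mPFC. The mPFC exceeded the DMT by 1.98 ± 0.27, a difference that was 0.50 without the 13 mice (edgeR adjusted p = 0.05608).

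Ppp1r1b (ENSMUSG00000061718.13, chr11:98348404-98357796) had a Nacc median of 1135 CPM, against 465.9 for the BLA, 87.08 for the ACC, 63.05 for the mPFC, 31.83 for the vHipp and 12.88 for the DMT. All 5 steps of this order passed the test, the smallest being ACC over mPFC (0.33 ± 0.13 SE on the log2 scale, edgeR adjusted p = 0.03636). DARPP-32 RNA in the vHipp was even, with a 1.804-fold range over 41 libraries.

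Rgs9 (ENSMUSG00000020599.14, chr11:109225355-109298129) had a median of 438.1 CPM in the Nacc and 119.4 in the BLA, and from 11.68 (DMT) to 23.86 (ACC) elsewhere. Pde10a (ENSMUSG00000023868.18, chr17:8525372-8986648) had a median of 1096 CPM in the Nacc, 365.4 in the BLA and between 104.2 and 126.7 CPM in the other 4 regions. Outside the Nacc and BLA it was thus the least regional of the striatal genes. Its mPFC, ACC and DMT levels did not differ by the test, and the vHipp lay below the ACC by 0.33 ± 0.10 (SE) on the log2 scale, or by 0.19 without the 13 mice (edgeR adjusted p = 0.08095).

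Drd5 (ENSMUSG00000039358.4, chr5:38319367-38322518) had another order. Its median was 12.03 CPM in the vHipp (7.965 to 17.48), 9.179 in the DMT (7.102 to 11.39), 6.625 for the ACC, 4.949 for the Nacc, 3.236 for the mPFC and 2.087 for the BLA. Every step between neighbours passed the test, from 0.32 ± 0.10 (SE, ACC over Nacc) to 0.59 ± 0.09 (DMT over ACC) on the log2 scale. Without the 13 mice the same 5 steps passed.

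Drd3 (ENSMUSG00000022705.6, chr16:43754026-43822932) was a Nacc gene at a low level, from 4.408 to 12.47 CPM there, and no library of another region reached the lowest of these. Its median was 0.9201 CPM in the BLA and 0.8848 in the DMT, which did not differ (log2 difference -0.01 ± 0.18 SE, 95% interval from -0.36 to 0.35). It was at 0 in 21 ACC and 16 mPFC libraries. Drd4 (ENSMUSG00000025496.6, chr7:141292006-141296464) was near the detection limit, with medians between 3 and 7 counts per library in each region. Its level was higher in the mPFC, ACC and DMT than in the Nacc, by 0.81 ± 0.18, 0.86 ± 0.18 and 0.63 ± 0.18 (SE) on the log2 scale. A level of this size rests on a few reads per library.

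**Figure D1:**
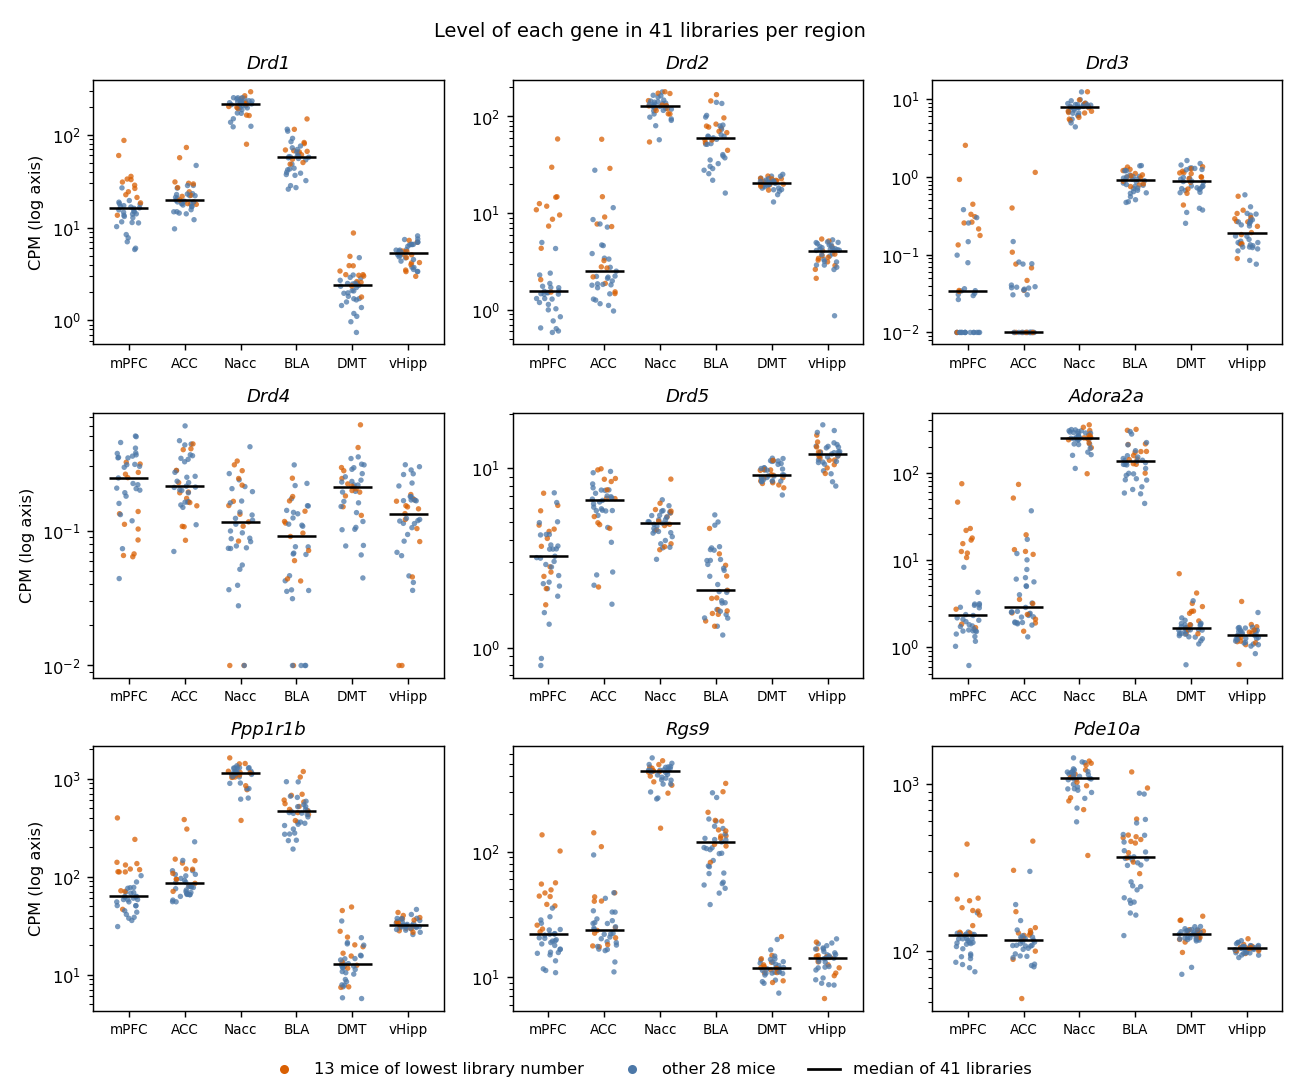
Level of each of the 9 genes in CPM (log axis) in the 41 libraries of each region, with the median as a bar; orange points are the 13 mice with the lowest library numbers, blue points the other 28, and values of 0 are drawn at 0.01 CPM. Drd1, Drd2, Drd3, Adora2a, Ppp1r1b, Rgs9 and Pde10a are highest in the Nacc and Drd5 is highest in the vHipp, and orange points form the upper tail of several genes in the mPFC.

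Across the 15 pairs of regions, 120 of 135 tests of the 9 genes had an edgeR adjusted p under 0.05, where between 39.1% and 83.9% of all 17381 genes tested passed. The share of all genes was 75.3% for the ACC against the BLA, 82.7% against the DMT, 76.3% against the Nacc and 76.5% against the vHipp. For the BLA it was 83.1% against the DMT and 75% against the vHipp, and for the DMT against the vHipp 83.9%. For the mPFC it was 74.7% against the BLA, 83.2% against the DMT, 75.6% against the Nacc and 75.4% against the vHipp. For the Nacc it was 69% against the BLA, 83.3% against the DMT and 75.9% against the vHipp. Regional differences were thus common among all genes. The Nacc exceeded the BLA in 9 of 9 genes, against 35.4% of all genes, with a median log2 difference of 1.13 against 0.01 over all genes. The smallest was that of Drd4 (0.44 ± 0.20 SE, edgeR adjusted p = 0.04832), which was lost without the 12 mismatched libraries (adjusted p = 0.327). The Nacc exceeded the mPFC in 8 of 9 genes (39.2% of all genes), the ACC in 7 (40.4%), the DMT in 7 (42.0%) and the vHipp in 7 (39.4%). The exceptions were Drd4, which was not higher in the Nacc than in these 4 regions, and Drd5, which was higher in the ACC, DMT and vHipp. The mPFC and ACC differed in 3 of 9 genes (39.1% of all genes), with Drd5 and Ppp1r1b lower in the mPFC and Drd3 higher. Without the 13 mice the mPFC was also below the ACC for Drd2 (by 1.39 on the log2 scale), Adora2a (by 1.25), Drd1 (by 0.53) and Rgs9 (by 0.43), and Drd3 no longer differed (edgeR adjusted p = 0.07488).

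The BLA libraries spread widely and overlapped the Nacc. Of the 41 BLA libraries, 31 exceeded the lowest Nacc library for Adora2a, 28 for Ppp1r1b, 25 for Drd2, 19 for Pde10a, 10 for Rgs9 and 8 for Drd1, but 0 for Drd3. The highest BLA library had 315.8 CPM of Adora2a and 168.2 CPM of Drd2, above the Nacc medians. The ratio of Drd1 to Drd2 in CPM, a measure of balance within a library that is not scaled to gene length, had a median of 1.602 in the Nacc (1.367 to 2.159). It was 0.9476 in the BLA (0.7847 to 1.674), 8.725 for the mPFC, 7.442 for the ACC, 1.288 for the vHipp and 0.1231 for the DMT. The ratio of Drd2 to Adora2a was 0.5098 in the Nacc and 0.4481 in the BLA but 11.75 in the DMT. The 4 other indirect pathway genes summed to a median of 14.36 CPM in the DMT of the 28 mice with higher library numbers and 627.5 CPM in their BLA.

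For each gene the 3 protein-coding genes of most similar level over all libraries were found by Pearson's r on the log2 scale, a description that is dominated by the difference between regions. Drd1 was most like Tac1 (r = 0.97), the substance P precursor of direct pathway neurons. Adora2a was most like Sh3rf2 (0.99), Ppp1r1b like the enkephalin precursor Penk (0.97), Rgs9 like the orphan receptor Gpr6 (0.98) and Pde10a like Ptpn7 (0.98). Drd2 was most like Ccdc187 (0.96) and Drd3 like the guidance cue Ntn1 (0.98). Drd5 was most like the exchanger Slc24a2 (0.80), and no gene passed an r of 0.55 with Drd4 (Hjv).

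A list of 31 genes of the striatal signalling pathway held G proteins, kinases, phosphatases, phosphodiesterases and receptors. Adcy5, Pde1b and Rasd2 are also in the list of striatal projection neurons. The genes were chosen for their part in striatal signalling, so higher levels in the Nacc describe the list and are not a test. Of the 31, 22 were higher and 5 lower in the Nacc than in the BLA, where 69% of all genes were called and 35.4% were higher. The counts were 22 and 7 against the DMT (83.3% called, 42.0% higher) and 25 and 5 against the vHipp (75.9% and 39.4%). They were 20 and 10 against both cortical regions, where 75.6% (mPFC) and 76.3% (ACC) of all genes were called and 39.2% and 40.4% were higher. Their median log2 difference between the Nacc and BLA was 0.40, against 0.01 over all genes. Between these regions Chrm4, the M4 muscarinic receptor of direct pathway neurons, was higher by 1.25 ± 0.05 (SE) on the log2 scale. Arpp21 was higher by 1.12 ± 0.05, and the kinase subunit Prkar2b by 0.89 ± 0.04. Of 7 genes for dopamine synthesis, transport and breakdown, 2 were higher and 4 lower in the Nacc than in the BLA, and 5 were higher and 1 lower than in the vHipp, against 69% and 75.9% of all genes called in either direction. Th, which encodes the rate-limiting enzyme of dopamine synthesis, exceeded the vHipp by 4.89 ± 0.27 (SE). Maob, which breaks dopamine down, was lower in the Nacc than in the DMT by 2.64 ± 0.04 on the log2 scale.

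Striatal genes were high in some cortical punches. In the mPFC the 28 mice with higher library numbers had 0.6179 to 8.267 CPM of Adora2a, with a median of 1.891 CPM. The 13 mice with the lowest library numbers had 1.682 to 75.16 CPM, with a median of 15.44 CPM, and 10 of the 13 lay above all 28. The same held for 10 of the 13 in Drd2, Ppp1r1b and Rgs9, for 8 in Pde10a and for 7 in Drd1. The 13 mice were set apart after the values were seen, so this separation is a description and not a test. The summed level of the 20 other striatal genes, of which all 20 had a median above 0 in both sets of mice, ranged from 604.1 to 2421 CPM in the 13 mice (median 886.9) and from 625.2 to 846.4 CPM in the 28 (median 647.5). Mouse 61 had the highest Adora2a in the mPFC (75.16 CPM) and in the ACC (73.8 CPM), or 29.81% and 29.27% of the Nacc median. Among the 10 mice with the highest Adora2a in each of these regions, 6 were shared. Libraries were numbered region by region, so a region and its run of library numbers cannot be told apart.

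Other genes of both striatal pathways were also higher in these libraries. The 4 indirect pathway genes (Penk, Gpr6, Gpr52 and Sp9) summed to a median of 98.51 CPM in the 13 mPFC libraries and 45.68 CPM in the 28. The 6 direct pathway genes summed to medians of 141.7 and 123.2 CPM. Whether striatal tissue entered these punches was not tested.

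In the mPFC the mean log2 level of the 20 striatal genes, which hold none of the 9 genes, correlated over 41 libraries with 7 of the 9. Pearson's r was 0.96 for Adora2a (Spearman's rho = 0.86, permutation p = 1e-05 for both, adjusted p = 0.00039 and 0.00027). A p of 1e-05 is the smallest that 100000 permutations can give, and p-values were adjusted over all genes tested in the region. The r was 0.93 for Drd3, 0.91 for Drd2, 0.89 for Rgs9 and Pde10a, 0.84 for Ppp1r1b and 0.74 for Drd1 (permutation test, adjusted p = 0.00039 for each), with rho between 0.40 and 0.73. Without the 2 libraries farthest from the median of the list it lay between 0.54 (Drd1) and 0.96 (Adora2a). A positive correlation passed for 9.25% of all genes. Drd5 (r = 0.12, rho = -0.14) did not pass the permutation test. Drd4 (r = -0.38, rho = -0.23) missed the threshold at an adjusted p of 0.060 by the permutation test, and with levels centred within condition and set its r of -0.40 passed (permutation adjusted p = 0.037).

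The mPFC relation rested largely on the 13 mice. Among these alone r was 0.92 to 0.98 for the same 7 genes, where 2.03% of all genes had a positive correlation that passed. Among the other 28, r was 0.77 for Adora2a (0.45 without the 2 farthest libraries), and it passed for none of the other 7 genes tested, where 15.8% of all genes had a positive correlation that passed. Drd3 was not tested there. The r was -0.27 for Drd1, -0.11 for Ppp1r1b and -0.31 for Drd5, and without the 2 farthest libraries it was -0.71, -0.62 and -0.48. For Drd2, Rgs9 and Pde10a r was 0.28, 0.31 and 0.33, and without these libraries -0.30, -0.04 and -0.12. In the ACC 6 genes correlated over all 41 mice, with r from 0.87 (Drd1) to 0.96 (Adora2a and Drd2) and rho from 0.61 to 0.91 (permutation test, adjusted p = 0.00044 for each r), against 7.53% of all genes. Without the 2 farthest libraries these r were 0.75 to 0.96. There the same 6 passed among the 28 mice, with r from 0.75 to 0.95 against 301 of 15376 genes in all. They also passed among the 13 alone, with r from 0.89 to 0.98 against 1.19% of all genes.

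**Figure D2:**
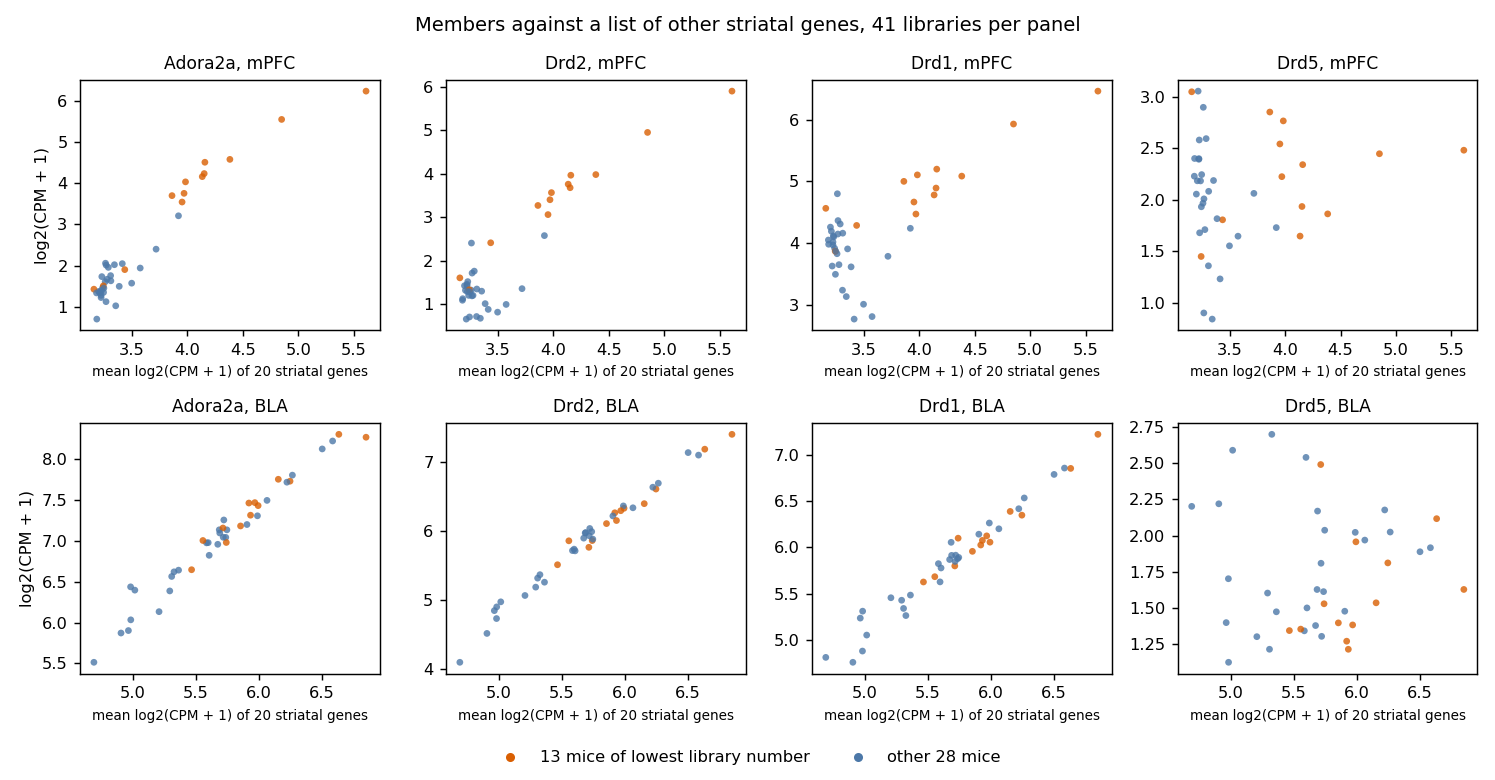
Log2(CPM + 1) of Adora2a, Drd2, Drd1 and Drd5 against the mean log2(CPM + 1) of 20 other striatal genes in 41 libraries of the mPFC (top) and BLA (bottom); orange points are the 13 mice with the lowest library numbers and blue points the other 28. In the mPFC the orange points stretch to the upper right for Adora2a, Drd2 and Drd1 (r = 0.96, 0.91 and 0.74), in the BLA both colours lie along 1 line (r = 0.98 to 0.99), and Drd5 follows neither.

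In the BLA the relation was closer and did not depend on the 13 mice, and striatal tissue in these punches was not tested for. Drd1, Drd2, Adora2a, Ppp1r1b, Rgs9 and Pde10a had r from 0.98 to 0.99 and rho from 0.96 to 0.98 (permutation test, adjusted p = 6e-05 for each r), and Drd3 had r = 0.69 (rho = 0.66). Of all genes, 23.4% had a positive correlation that passed. For the 6 genes r was 0.98 to 0.99 without the 2 farthest libraries and also among the 28 mice, and 0.97 to 0.99 among the 13. Drd3 passed among the 28 (r = 0.71, permutation adjusted p = 0.00044, 18.6% of all genes positive). Among the 13 it did not (r = 0.36, permutation adjusted p = 0.43, 7.97% positive). Drd4 in the BLA missed the threshold (r = 0.35, permutation adjusted p = 0.055). With a pseudocount of 0.1 it passed (r = 0.38, permutation adjusted p = 0.032, 23.3% positive). In the DMT, Adora2a, Drd1, Rgs9 and Ppp1r1b had r from 0.66 to 0.69, with 6.62% of all genes positive, but Adora2a had a rho of 0.29 that did not pass. Without the 2 farthest libraries their r fell to between 0.39 and 0.53, and none of the 4 passed without the 13 mice, when 0.162% of all genes did. The r was then 0.65 for Rgs9 (permutation adjusted p = 0.054), 0.36 for Drd1, 0.30 for Ppp1r1b and 0.09 for Adora2a. Drd2, the most abundant dopamine receptor of the DMT, had r = 0.09 (rho = 0.06). In the vHipp, Drd2 (r = 0.55, rho = 0.51) and Drd1 (r = 0.49, rho = 0.49) passed, with 3.62% of all genes positive. Without the 2 farthest libraries r was 0.52 and 0.55, and among the 28 mice 0.64 and 0.65. These vHipp calls depended on the pseudocount. At 0.1 in place of 1 the r was 0.52 for Drd2 and 0.37 for Drd1 and neither passed (permutation adjusted p = 0.096 and 0.19), with 0.0637% of all genes positive. Neither passed among the 13 mice alone (r = 0.55 and 0.50, permutation adjusted p = 0.39 and 0.44), where 0.0% of all genes did. Within the Nacc, a relation added after the data were seen, the 6 genes had r from 0.89 to 0.98 (0.83 to 0.97 without the 2 farthest libraries) and Drd3 0.59, with 20% of all genes positive.

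The 3 conditions were compared within each region and set. None of the 9 genes passed in any of the 6 condition comparisons (0 of 300 tests, edgeR), and DESeq2 also called 0. Drd3 in the ACC and Drd4 in the Nacc, BLA and vHipp had too few counts for these tests. At an unadjusted p under 0.05 there were 24 tests by edgeR and 26 by DESeq2. Over all genes, 4.12% of the tests had such a p, and the share called was 0.0% in 35 of the 36 region and set comparisons and 0.00649% in the BLA (ELA_SAFit2 vs ELA_Veh, SocialInteraction). Of 100 genes changed by 2-fold in data simulated for ELA_Veh vs Ctrl_Veh in the mPFC, edgeR found 85. These genes were drawn from all genes with enough counts, another 100 were changed by 4-fold, and no library was made to stand apart. The count therefore does not give the power for the 9 genes. The values below describe differences that did not pass.

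In the ACC, and in the mPFC of SocialInteraction mice, differences of striatal genes between conditions went together with the list of other striatal genes. In the mPFC of NoInteraction mice the means were closer. They were 8.481 CPM in Ctrl_Veh and 9.111 in ELA_Veh for Adora2a, and 5.45 and 6.217 for Drd2. Adora2a in the ACC of NoInteraction mice ranged from 1.899 to 13.18 CPM in Ctrl_Veh (median 2.236) and from 1.924 to 51.47 CPM in ELA_Veh (median 4.989). The groups overlapped, and the difference in means was 1.64 ± 0.71 (SE) on the log2 scale (edgeR adjusted p = 0.7014). With the mean level of the 20 striatal genes as a covariate it was 0.00. Drd2 went from 1.4 ± 0.63 to 0.01 in the same way, and in SocialInteraction mice from 1.97 ± 0.92 to 0.02. Without mouse 37 the NoInteraction differences of the group means were 0.66 for Adora2a and 0.64 for Drd2, and without mouse 61 the SocialInteraction difference was 0.42 for Drd2.

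The mPFC of SocialInteraction mice gave the same picture. Drd2 there had medians of 1.582 CPM in Ctrl_Veh and 1.702 CPM in ELA_Veh, but a highest library of 7.348 and 58.5 CPM, the second of which was mouse 61. The log2 difference of ELA_Veh vs Ctrl_Veh was 2.12 ± 0.99 (SE) for Drd2, 2.17 ± 1.03 for Adora2a and 2.77 ± 1.31 for Drd3. With the covariate these were 0.22, 0.06 and -0.01. Without mouse 61 the log2 differences of the group means were 0.02 for Drd2, -0.18 for Adora2a and 0.10 for Drd3. The covariate is built from genes of the same tissue, so a change of striatal genes in the cortex itself and striatal tissue in the punch cannot be told apart by it.

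**Figure D3:**
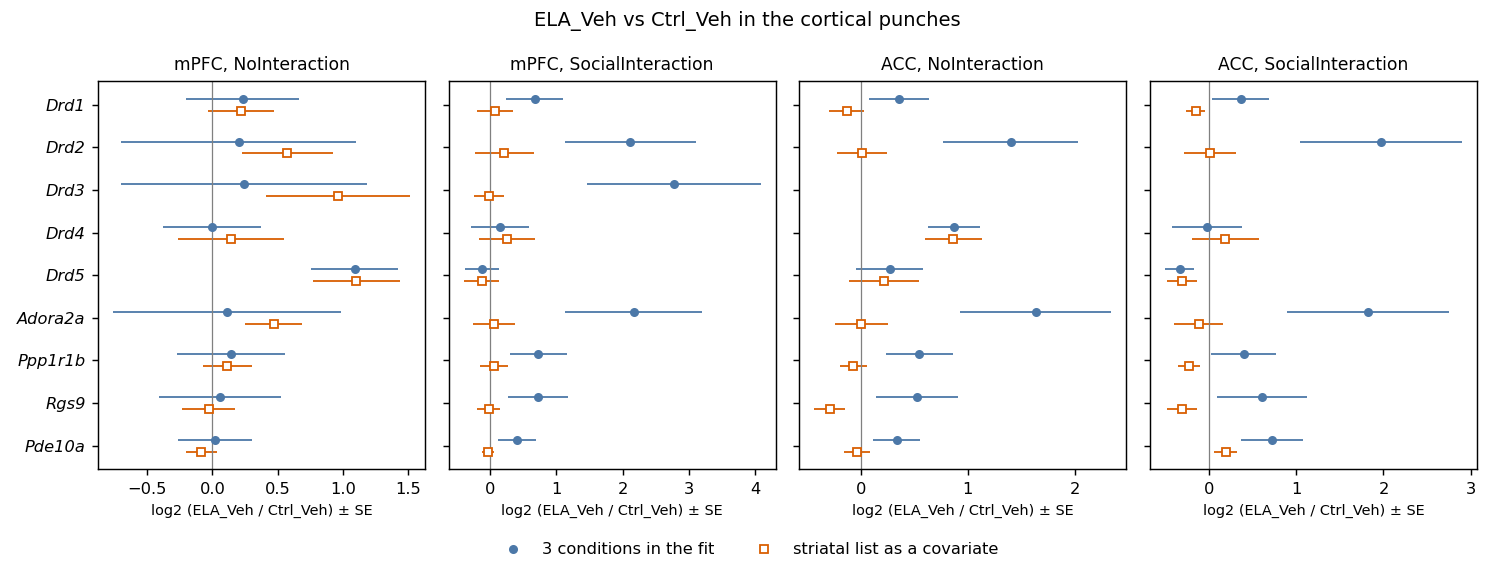
Log2 difference of ELA_Veh vs Ctrl_Veh ± SE for the 9 genes in the mPFC and ACC of both sets, from the fit of 3 conditions (blue circles) and with the mean level of 20 other striatal genes as a covariate (orange squares); Drd3 did not pass the count filter in the ACC. Adora2a and Drd2 in the ACC and in the mPFC of SocialInteraction mice move from between 1.4 and 2.17 to between -0.12 and 0.22, and Drd5 in the mPFC of NoInteraction mice stays at 1.09 and 1.10.

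Drd5 in the mPFC did not move with the striatal list, and its Pearson's r with the other genes there lay between -0.25 (Drd4) and 0.50 (Drd1). In NoInteraction mice it ranged from 0.8713 to 4.452 CPM in Ctrl_Veh (median 2.275), from 2.32 to 7.302 CPM in ELA_Veh (median 5.035) and from 0.7958 to 4.253 CPM in ELA_SAFit2 (median 2.206). All 7 ELA_Veh mice lay above the Ctrl_Veh median and 4 lay above all Ctrl_Veh mice. The log2 difference was 1.09 ± 0.33 (SE) for ELA_Veh vs Ctrl_Veh (edgeR adjusted p = 0.9406) and -0.98 ± 0.33 for ELA_SAFit2 vs ELA_Veh (edgeR adjusted p = 0.8986). With the striatal covariate the first was 1.10, and without the 13 mice 1.2. Whether other tissue in the punches, such as olfactory bulb, varied with Drd5 was not tested. In SocialInteraction mice the medians were 3.918, 3.689 and 2.91 CPM in Ctrl_Veh, ELA_Veh and ELA_SAFit2, and the ELA difference was lower than without interaction by 1.2 ± 0.44 on the log2 scale (edgeR adjusted p = 0.8371).

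Drd4 in the ACC of NoInteraction mice was also highest in ELA_Veh, at very low counts. It ranged from 0.1552 to 0.3656 CPM in Ctrl_Veh, from 0.1934 to 0.5986 CPM in ELA_Veh and from 0.1107 to 0.2709 CPM in ELA_SAFit2. Of the 7 ELA_Veh mice, 5 lay above all Ctrl_Veh mice. The log2 difference was 0.87 ± 0.25 (SE) for ELA_Veh vs Ctrl_Veh (edgeR adjusted p = 0.7014) and -1.02 ± 0.25 for ELA_SAFit2 vs ELA_Veh (adjusted p = 0.4648). In SocialInteraction mice the medians were 0.2001, 0.2105 and 0.2273 CPM in Ctrl_Veh, ELA_Veh and ELA_SAFit2, so this order was not seen there. No ACC library held more than 14 counts of this gene.

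In the vHipp of NoInteraction mice Drd1 ranged from 4.172 to 7.552 CPM in Ctrl_Veh (median 6.628), from 3.365 to 5.59 CPM in ELA_Veh (median 4.524) and from 3.355 to 8.15 CPM in ELA_SAFit2 (median 5.1). All 7 ELA_Veh mice lay below the Ctrl_Veh median, and 3 lay below all Ctrl_Veh mice. The log2 difference of -0.53 ± 0.16 (SE, edgeR adjusted p = 0.9595) was -0.49 with the striatal covariate and -0.65 without the 13 mice. Rgs9 differed by -0.32 ± 0.12 between ELA_Veh and Ctrl_Veh and by 0.34 ± 0.12 between ELA_SAFit2 and ELA_Veh. Drd5 differed by -0.26 ± 0.12 between ELA_SAFit2 and ELA_Veh, with all adjusted p-values of these vHipp tests at 0.9595 or above. In SocialInteraction mice the Rgs9 differences were -0.31 ± 0.18 and -0.06 ± 0.18, and 3 of the 7 ELA_SAFit2 mice lay below all ELA_Veh mice, so the higher Rgs9 of ELA_SAFit2 over ELA_Veh was not repeated. Drd1 differed there by -0.22 ± 0.19 between ELA_Veh and Ctrl_Veh, and Drd5 by 0.01 ± 0.10 between ELA_SAFit2 and ELA_Veh.

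**Figure D4:**
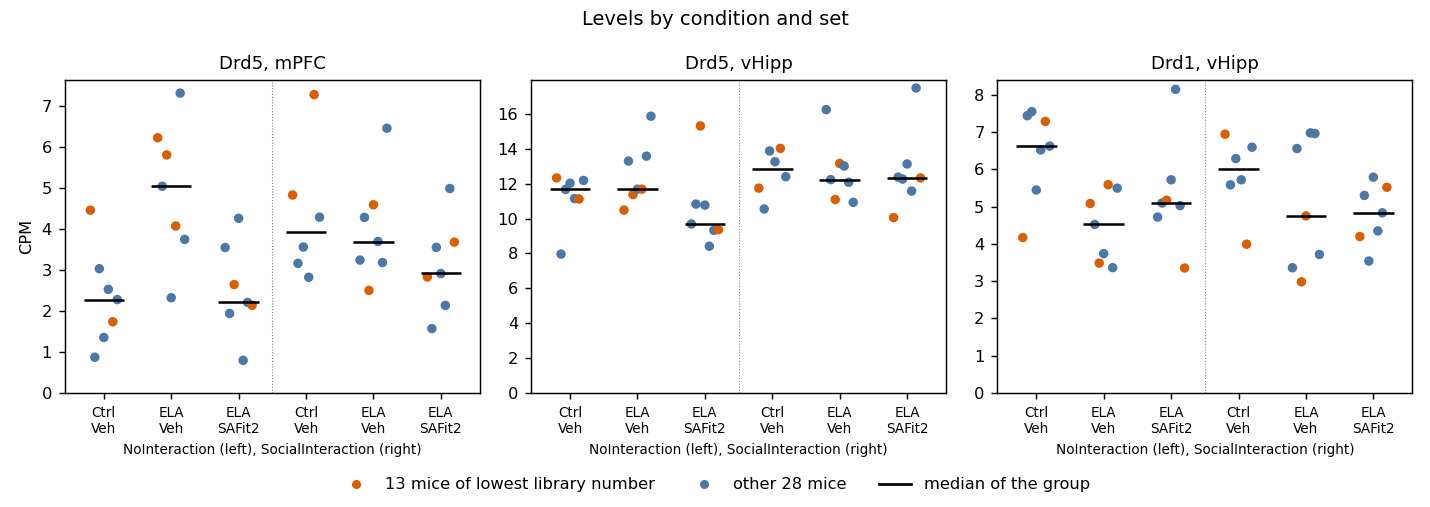
CPM of Drd5 in the mPFC, Drd5 in the vHipp and Drd1 in the vHipp by condition, with NoInteraction mice left and SocialInteraction mice right of the dotted line; points are mice (orange, the 13 lowest library numbers) and bars are group medians. Drd5 in the mPFC of NoInteraction mice has medians of 2.275, 5.035 and 2.206 CPM, and Drd1 in the vHipp has 6.628, 4.524 and 5.1 CPM, with overlapping groups.

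In the Nacc of NoInteraction mice the striatal genes had lower medians and a wider spread in ELA_Veh. Ppp1r1b ranged from 793.3 to 1431 CPM in Ctrl_Veh (median 1193), from 375.4 to 1419 CPM in ELA_Veh (median 773) and from 1054 to 1633 CPM in ELA_SAFit2 (median 1279). The values 1431, 375.4, 1419 and 1633 CPM came from libraries that matched another mouse. Drd1 had medians of 222.9, 161.7 and 232.2 CPM in the same order. By label, 4 of the 7 ELA_Veh mice lay below all Ctrl_Veh mice for Ppp1r1b, Rgs9 and Pde10a, and 3 did for Drd1, Drd2 and Adora2a. Each count includes the library labelled mouse 69, which matched another mouse. Of the 5 Nacc libraries with the lowest striatal list, 3 were ELA_Veh mice of this set and 2 were ELA_SAFit2 mice of SocialInteraction. Mouse 69 had 79.34 CPM of Drd1, 54.47 of Drd2 and 97.88 of Adora2a, each the lowest of the 41, and its library matched another mouse. Mouse 99 had 123.9 CPM of Drd1 and 1418 CPM of cortical excitatory genes, the highest of the 41, whereas mouse 43, with 122.2 CPM of Drd1, had 142.7 CPM of them.

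ELA_SAFit2 exceeded ELA_Veh in the Nacc of NoInteraction mice by 0.50 ± 0.22 (SE) on the log2 scale for Ppp1r1b (edgeR adjusted p = 0.6377), and by 0.45 without the mismatched libraries. In SocialInteraction mice the difference was -0.18 ± 0.09 for this gene and -0.19 ± 0.09 for Drd2. The difference between the sets was -0.69 ± 0.24 for Ppp1r1b (edgeR adjusted p = 0.5135), -0.59 ± 0.25 for Adora2a, -0.56 ± 0.25 for Drd2, -0.53 ± 0.22 for Rgs9 and -0.51 ± 0.24 for Drd1. These 5 genes had an unadjusted p under 0.05, as did 9.48% of all genes, and 0 passed the adjusted threshold, which 0.0315% of all genes did. The 5 values share the same libraries and, with r of at least 0.93 to the striatal list in this region, are not independent of each other. All 5 were computed with the mismatched libraries under their labels. The ratio of Drd1 to Drd2 had medians between 1.524 and 1.723 in the 6 groups.

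**Figure D5:**
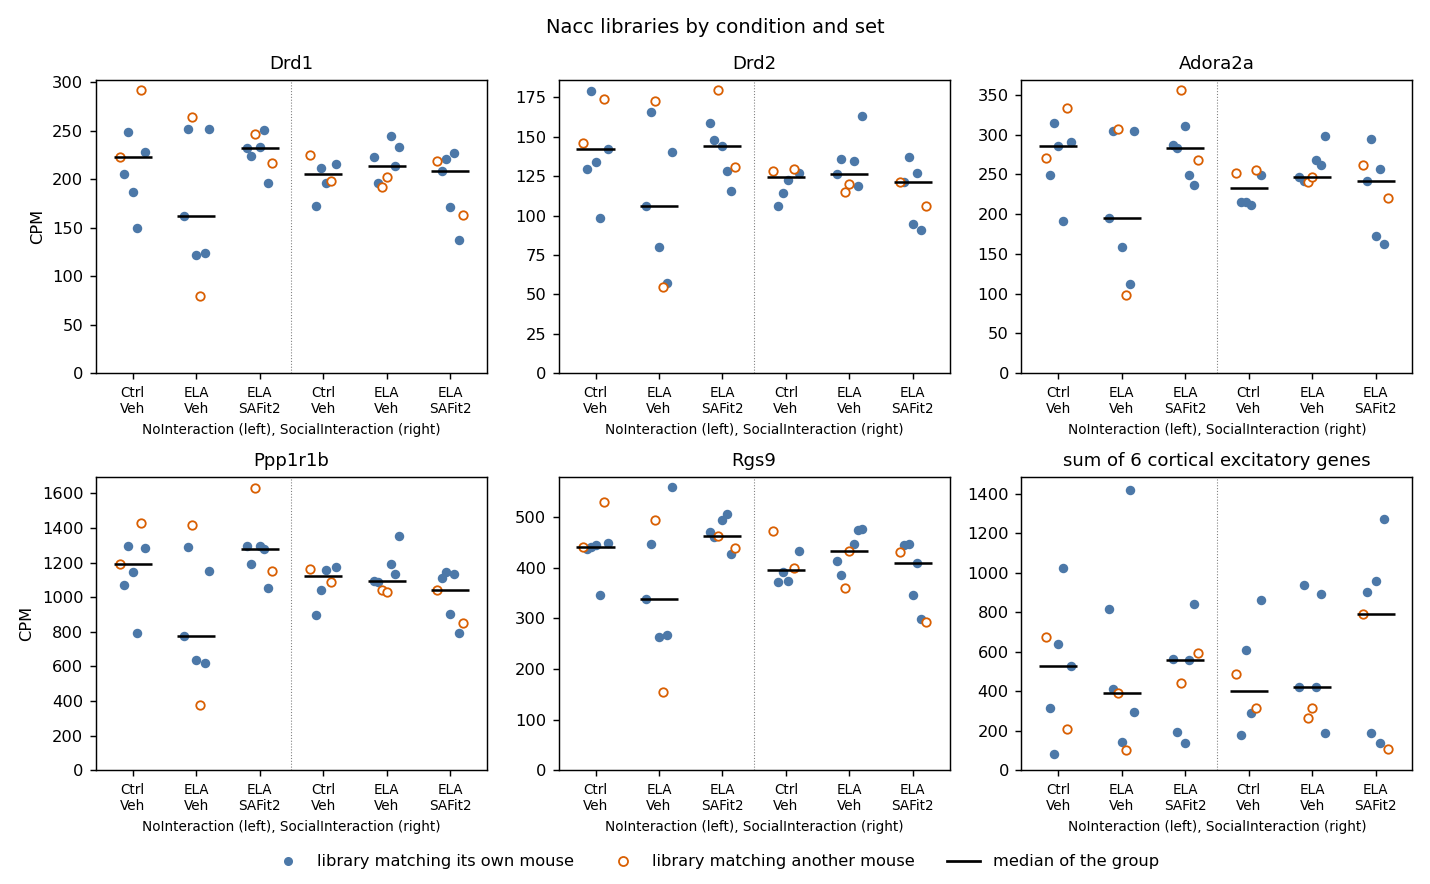
CPM of Drd1, Drd2, Adora2a, Ppp1r1b and Rgs9 and the summed CPM of 6 cortical excitatory genes in Nacc libraries by condition and set; open orange circles are the 12 libraries that matched another mouse, blue points the others, and bars are group medians. By label, the lowest striatal values lie in ELA_Veh of NoInteraction (Ppp1r1b median 773 CPM) and in ELA_SAFit2 of SocialInteraction (median 1041 CPM). They include libraries with high and with low cortical levels.

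A preceding social interaction, with the 3 conditions averaged, gave 0 calls among 53 tests of the 9 genes by edgeR and by DESeq2, with 2 at an unadjusted p under 0.05 by each. Over all genes, 13.2% of the edgeR tests had such a p. The share of all genes that passed was 7.4% for the mPFC, 4.15% for the ACC, 1.49% for the BLA, 1.6% for the DMT, 1.21% for the vHipp and 0.0% for the Nacc. Both of the 2 were in the vHipp, Drd5 with 0.16 ± 0.07 (SE) and Pde10a with 0.05 ± 0.02 on the log2 scale (edgeR adjusted p = 0.3096 and 0.3703). With the striatal list as a covariate 1 test passed, Pde10a in the mPFC with a log2 difference of 0.20 (edgeR adjusted p = 0.038). In that fit 1322 of the 15812 genes tested in the mPFC passed. Among the pathway genes Rgs2, an activity-induced regulator of G-protein signalling, was higher after interaction in the mPFC (0.22 ± 0.06) and the ACC (0.23 ± 0.06). The monoamine oxidases Maoa (-0.10 ± 0.03) and Maob (-0.09 ± 0.03) were lower in the ACC. The differences of the ELA and SAFit2 effects between the sets also gave 0 calls in 53 tests each by edgeR and DESeq2, with 4 and 7 at an unadjusted p under 0.05 by both. Over all genes, 4.77% and 3.99% of the edgeR tests had such a p. Of all genes 0.0% passed for the ELA effect, and for the SAFit2 effect 0.0318% passed in the ACC, 0.0379% in the DMT, 0.0382% in the vHipp and 0.0% in the mPFC and BLA.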

How the data were processed

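RNA was measured by stranded, poly-A selected paired-end sequencing of punches from 250 µm sections. The authors deposited 1 table of estimated counts per gene made with salmon and merged to genes, not scaled to depth or length. STAR, DESeq2 and GRCm39 (mm39) are named in the submitters' processing notes without versions. In it 12.12% of values are not whole, and they were rounded. Groups came from the labels. The 9 genes and all gene lists were chosen with earlier results of these data known.

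Gene types and positions came from GENCODE M21 on GRCm38 (52073 identifiers matched, 978 typed through RefSeq symbols, 3640 left out), not from the authors' build. Genes that code for protein, reach 100 counts over the libraries fitted and are detected in 6 or more of them were tested with edgeR 4.0.16 (TMM, quasi-likelihood test, Benjamini-Hochberg adjustment over all genes) in R 4.3.3. Regions were compared in 1 fit of all libraries, conditions within region and set, and sets in 1 fit per region. Levels are TMM-normalized CPM, per kilobase of merged exons where genes are compared. Correlations used log2(CPM + 1) and 100000 permutations. The SE is the log2 difference over the root of its F statistic.

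Named were the 9 genes, at most 5 called genes of each list in a comparison and the 3 genes of likest pattern. The mouse behind a library was checked with 60 genes that differ between mice. Alternatives were DESeq2 1.42.0, its size factors in edgeR, no count filter, both sets in 1 fit, a mouse block, the striatal covariate, other correlation settings, and leaving out libraries. Leaving out the 13 mice, using them alone and the Nacc correlation were added after the values were seen. Mouse numbers pair the 6 libraries of a mouse, as the labels give them. The tests were run first on simulated data. Precision is limited by counting error at a few counts per library and otherwise by the number of mice.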

Additional observations from a re-analysis of the deposited data

Results flagged for a closer look

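In each group of 6 or 7 mice the highest or lowest library was compared with its nearest neighbour on the log2(CPM + 1) scale by Dixon's criterion. Of 324 groups, 42 held a library that stood apart, where chance would give about 16 (1 in 20), and 27 of the 42 came from the 13 mice with the lowest library numbers. In 15 the region was the mPFC and in 13 the ACC. The values below are in CPM, with the nearest other mouse of the group in brackets.

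In the mPFC, mouse 61 (ELA_Veh, SocialInteraction) was highest for Adora2a with 75.16 (4.274), Drd1 with 87.24 (26.84), Drd2 with 58.5 (4.333) and Drd3 with 2.553 (0.2557). It was also highest for Pde10a with 438.6 (128.9), Ppp1r1b with 398 (102.4) and Rgs9 with 135.9 (30.17). In the same region mouse 1 (Ctrl_Veh, NoInteraction) was highest for Adora2a with 46.22 (3.129), Drd2 with 29.85 (2.294) and Drd3 with 0.9288 (0.0789), and for Pde10a with 287.2 (128.2), Ppp1r1b with 240.3 (77.73) and Rgs9 with 101.02 (28.45). Mouse 17 (Ctrl_Veh, SocialInteraction) was highest for Adora2a with 10.69 (1.682) and Drd3 with 0.2624 (0.03418). Drd5 was in none of these mPFC groups.

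In the ACC, mouse 61 was highest for Drd1 with 73.21 (28.53), Drd3 with 1.146 (0.04667) and Pde10a with 456.9 (190.5). Mouse 79 (ELA_SAFit2, SocialInteraction) was highest for Adora2a with 36.75 (7.805), Drd1 with 46.85 (22.09), Pde10a with 301.1 (134.2), Ppp1r1b with 227 (108) and Rgs9 with 94.01 (28.99). Mouse 37 (ELA_Veh, NoInteraction) was highest for Drd3 with 0.399 (0.06771) and Pde10a with 305.5 (133.2). Mouse 1 was highest for Ppp1r1b with 137.6 (79.34), and mouse 15 (ELA_SAFit2, NoInteraction) for Drd3 with 0.1476 (0.03055). Mouse 9 (Ctrl_Veh, NoInteraction) was lowest for Drd5 with 1.748 (4.97).

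In the DMT, mouse 15 was lowest for Drd2 with 13.05 (18.22) and Pde10a with 72.87 (117.9) and highest for Rgs9 with 19.86 (12.6). Mouse 87 (ELA_SAFit2, NoInteraction) was lowest for Drd1 with 1.105 (2.075). A mouse of ELA_Veh, NoInteraction was highest for Adora2a with 3.415 (2.004), mouse 23 (ELA_SAFit2, SocialInteraction) for Adora2a with 4.189 (1.869) and mouse 89 (Ctrl_Veh, SocialInteraction) for Ppp1r1b with 49 (16.52). In the vHipp, Drd5 was lowest in mouse 9 with 7.965 (11.12) and highest in mouse 39 (ELA_SAFit2, NoInteraction) with 15.31 (10.83). There mouse 89 was lowest for Drd2 with 3.268 (4.069), mouse 49 (Ctrl_Veh, SocialInteraction) highest for Pde10a with 115.8 (105.8), and mouse 61 highest for Adora2a with 3.352 (1.697). In the BLA, mouse 43 (ELA_Veh, NoInteraction) was lowest for Drd1 with 26.01 (53.84). In the Nacc, a library labelled ELA_SAFit2, SocialInteraction was highest for Drd4 with 0.3285 (0.1374), and it matched another mouse.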

How the results depend on the processing

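The count of 120 regional calls was 119 with DESeq2, with DESeq2's size factors and without the mismatched libraries, and 120 without a count filter. Without the 13 mice it was also 120, but 7 calls were lost and 7 gained. Lost were Drd2 and Pde10a (ACC and vHipp), Pde10a (mPFC and vHipp), Drd4 (DMT and vHipp, Nacc and BLA), Drd3 (mPFC and ACC) and Adora2a (mPFC and DMT). Gained were Drd4 (ACC and DMT, mPFC and DMT), Drd3 (mPFC and vHipp) and, between the mPFC and ACC, Adora2a, Drd1, Drd2 and Rgs9. Mouse numbers pair the 6 libraries of a mouse, and with this block 119 tests passed: Drd2 no longer differed between the ACC and vHipp (0.34) or the mPFC and vHipp (0.15), and Drd3 came to differ between the mPFC and vHipp (-0.59). The block changed no other call, and it paired the 12 Nacc libraries that matched another mouse by their labels. Without the 13 mice the log2 difference turned to -1.34 for Drd2, mPFC minus vHipp, to 0.0773 for Drd4, mPFC minus ACC, and to -0.0546 for Pde10a, ACC minus DMT, -0.0934 for Pde10a, mPFC minus ACC, and -0.148 for Pde10a, mPFC minus DMT. In the other 28, correlations with the striatal list in the mPFC turned to -0.27 for Drd1 and -0.11 for Ppp1r1b, and 17 instead of 26 correlations over 5 regions passed. The share of all genes with a positive correlation that passed lay between 0.162% (DMT) and 18.6% (BLA) in these 28. Over all mice it lay between 3.62% (vHipp) and 23.4% (BLA). With the striatal covariate Drd3 in the mPFC (ELA_Veh vs Ctrl_Veh, SocialInteraction) was at -0.0052, and the social comparison had 1 call instead of 0. The cause of these changes was not tested.

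Condition comparisons gave 0 calls among the 9 genes under the other alternatives. Drd4 everywhere and Drd3 in the cortical regions are limited by counts, and the other genes by the spread between 6 or 7 mice a group. No paired analysis was possible for conditions because each mouse belongs to 1 condition.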
